A study of Mus musculus with 8 samples.

Results

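The genes described here are 38 enzymes and partners of fatty acid oxidation and ketone body metabolism, listed by name and all found among the 22052 genes of the deposited table. All 38 had values high enough to be tested. They were read in the livers of 8 adult male mice of the strain C57BL6, aged 8 weeks and challenged with corn oil into the peritoneum, in a study of 2 RNA-binding proteins that bind AU-rich stretches of mRNAs. The 4 controls had the genotype Zfp36l1fl/fl/Zfp36l2fl/fl, with both genes floxed and no Cre. The 4 livers called dKO here had the genotype Zfp36l1fl/fl/Zfp36l2fl/fl/Alb-Cre: the same floxed alleles with a recombinase driven by the albumin promoter that is active in hepatocytes and, through their shared precursors, can also act in bile duct cells. The other cells of whole liver are not its target. Each liver came from its own mouse, and both groups received corn oil, so an untreated liver is not part of the comparison.

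Fatty acid oxidation shortens acyl chains by a cycle of dehydrogenation, hydration, a further dehydrogenation and thiolysis. Chains are bound to coenzyme A, carried into mitochondria as carnitine esters and cut there to acetyl-CoA, which the liver turns into ketone bodies during fasting. Peroxisomes run a parallel cycle for very long and branched chains, and thioesterases free the acyl chains again. Many of these genes respond to PPAR-alpha, a nuclear receptor that fatty acids activate in hepatocytes.

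In dKO livers most genes of the oxidation cycle were lower. Of the 38 genes, 30 fell, 3 rose and 5 did neither (limma, Benjamini-Hochberg adjusted p under 0.05 over all genes tested). Of all 20055 genes tested, 17.0% were lower and 21.2% higher. Since most of these enzymes are abundant in liver, their count also has to be read against abundant genes: among 2653 genes that averaged at least 1000 normalised reads, 37.7% were lower and 21.2% higher, and among the 30 members above that level 27 fell and 2 rose. The median change of the 38 genes was -0.68 on the log2 scale, against 0.03 over all genes tested and -0.11 over the abundant genes. Controls and dKO livers were fully apart for 30 of the 38 genes, against 36.4% of all genes tested and 57.8% of the abundant ones; for 29 of them every dKO value lay under every control value, against 16.9% and 37.2%. Normalised reads are read counts divided by 1 size factor per library, and a change is dKO minus control in log2(normalised reads + 0.5), given with its standard error (SE); means carry the SD over the 4 livers of a group.

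Summed over the 38 genes, the controls held 0.978% to 1.18% of all normalised reads and the dKO livers 0.661% to 0.759%, with no overlap. Most changes were moderate: 11 of the 30 falls reached 2-fold, and the other falls lay between that size and a log2 change of -0.40. Across all genes tested 3.97% were lower by 2-fold or more, and 5.73% of the abundant genes. Of the rises 2 reached 2-fold, against 12.8% and 4.71%. In bulk tissue, fewer cells of a type and less RNA per cell cannot be told apart. Hepatocyte markers, tested as a list of 11 genes, held 7.13% to 7.93% of normalised reads in controls and 7.92% to 8.0% in dKO livers, and none was at 0 reads. Of the 11, 4 fell, 2 rose and 5 did neither (median log2 change -0.12). Transcripts encoded by mitochondrial DNA took 4.06% to 4.74% of reads in controls and 3.09% to 3.7% in dKO livers, without overlap; its part in the falls was not tested.

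**Figure D1:**
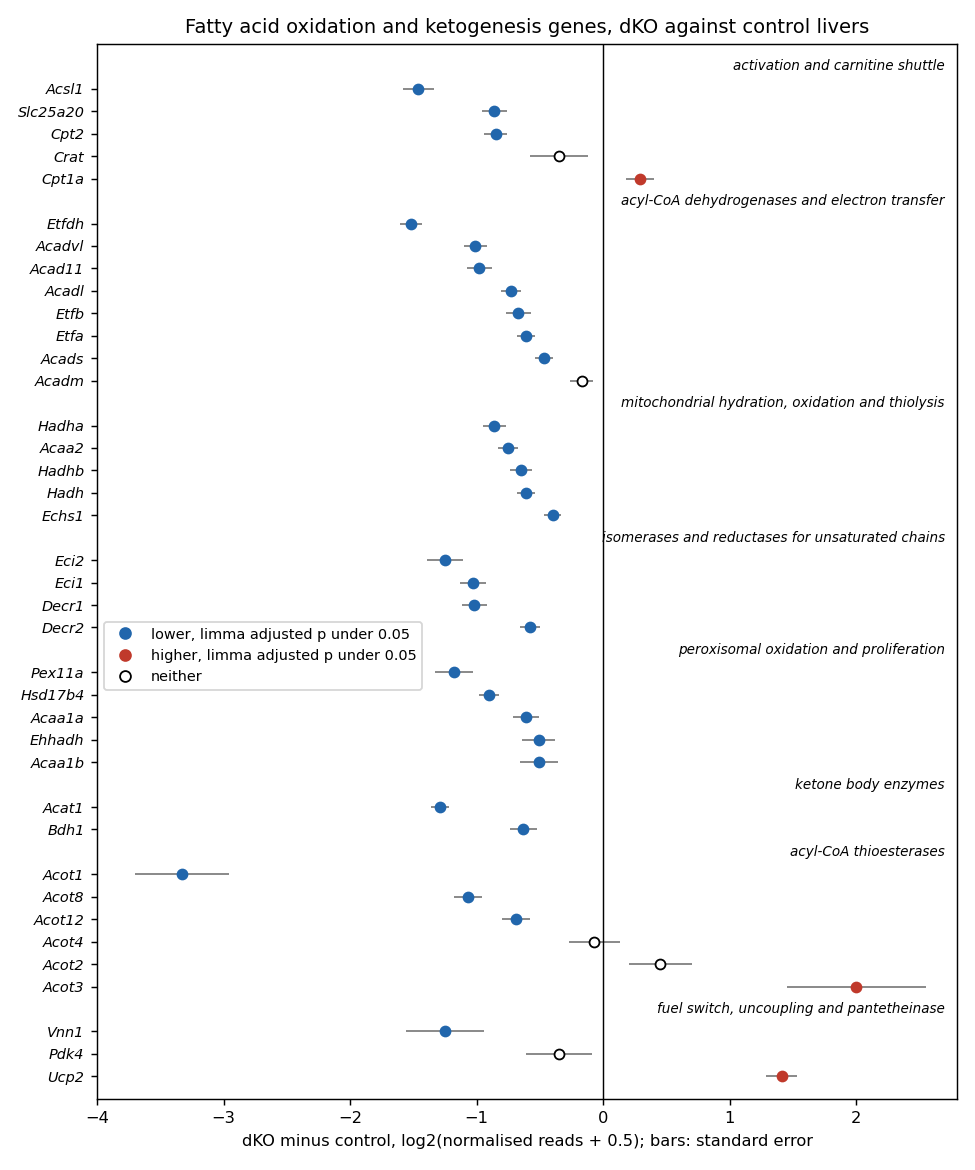
Change of each of the 38 genes in dKO against control livers, in log2(normalised reads + 0.5) with the standard error as bars, ordered by step of the pathway; filled points passed the test (blue lower, red higher) and open points did not. Every step has at least 1 blue point to the left of 0, though only 1 of 3 in the last step and 3 of 6 among thioesterases are blue. Acot1 lies far to the left at -3.33, while Ucp2, Acot3 and Cpt1a lie to the right.

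As a check of the labels, Zfp36l1 fell from 1370.2 ± 194 to 226 ± 27.6 and Zfp36l2 from 1584 ± 393 to 796 ± 94.4; shuffling the group labels in all 70 possible ways gave an exact 2-sided permutation p = 0.0286 for each, the smallest value possible with 4 livers against 4. Whole-liver reads of both can also come from cells that Alb-Cre does not target. Gene-assigned reads numbered 15253827 to 19299556 per library. Control 4 stood apart from controls 1 to 3 on the first principal component, with a score of -43.3 against -76.5 to -67.7, while dKO livers scored 57.5 to 68.9; without that liver 31 of the 38 genes fell and 2 rose. Markers of cells other than hepatocytes rose with the falls described here: 10 of 13 of monocytes, macrophages and Kupffer cells, 9 of 9 of neutrophils, 7 of 7 of bile ducts and 6 of 9 of stellate cells and fibroblasts, and none of these 4 lists had a fall. In controls against dKO livers, the summed level ranges of the 4 lists, in that order, were 9100.2 to 13319 against 19237 to 28938, 92.4 to 444 against 775 to 1109.5, 654 to 1554 against 8269 to 12567, and 4256 to 13532 against 23391 to 31507. Of the neutrophil list, 2 markers were at 0 reads in all controls, and no other gene of the 4 lists was at 0 in all livers of a group. The part of these cells in the falls was not tested.

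The first steps bind the chain to coenzyme A and carry it into mitochondria, and here 3 of 5 genes fell and 1 rose. Acsl1, the main long-chain acyl-CoA synthetase of liver, stood at 19419.7, 20349, 16207 and 14478 across controls 1 to 4, against 7378, 5772, 6384 and 5980.3 across dKO livers 1 to 4. The groups were far apart, and the dKO mean was 36.2% of the control mean (log2 -1.46 with an SE of 0.12; adjusted p = 1.42e-06 by limma). Of the carnitine shuttle, the inner membrane enzyme Cpt2, which rebuilds the acyl-CoA, fell from 3155 ± 401 to 1739 ± 96.8 (log2 change -0.85), and the carrier Slc25a20, which exchanges acylcarnitine for carnitine, fell from 2228 ± 270.5 to 1224 ± 135 (log2 change -0.86), both without overlap.

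Cpt1a, the outer membrane enzyme that sets the rate of entry, had the opposite sign to Cpt2 and Slc25a20. Its values were 8052, 8823, 6987 and 7406 in controls, against 10505, 7958, 10782 and 9186 in dKO (log2 0.29 with an SE of 0.11; adjusted p = 0.0489 by limma). The groups overlapped, since dKO 2 lay below controls 1 and 2, and adjusted p ran from 0.000747 to 0.129 over 19 other settings, 10 of which lost the call. Of those 10, 6 left out 1 liver: control 1 (adjusted p = 0.0729), control 3 (0.129), control 4 (0.1), dKO 1 (0.124), dKO 3 (0.126) or dKO 4 (0.0727), all from limma. Crat, which moves short chains between carnitine and coenzyme A, stood at 1482, 889.5, 785 and 552 in controls, against 838, 572, 644 and 697 in dKO; control 1 was above all other livers, control 4 below all of them, and the adjusted p of 0.258 became 0.0326 (log2 change -0.57) without control 4 (limma).

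Acyl-CoA dehydrogenases open each turn of the cycle and hand their electrons to the electron transfer flavoprotein; 7 of these 8 genes fell. Etfdh, the membrane oxidoreductase that passes the electrons on to ubiquinone, had the largest fall of the group, with 6272, 6246, 5117 and 4770.2 across controls 1 to 4, against 1882, 1916, 1988 and 1953 across dKO livers 1 to 4. The 4 dKO livers lay within a 1.06-fold range, at 34.5% of the control mean (log2 -1.52 with an SE of 0.09; adjusted p = 1.54e-07 by limma). The 2 subunits of the flavoprotein, Etfa and Etfb, fell less, from 5329.5 ± 193 to 3487 ± 185 and from 5153 ± 181 to 3264 ± 498 (log2 changes -0.61 and -0.67). That Etfdh fell further than its partners was not tested as a difference.

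The dehydrogenases differ in the chain length they take. Acadvl, for very long chains, fell from 4484 ± 433 to 2228 ± 187 (log2 -1.01 with an SE of 0.09; adjusted p = 2.69e-06 by limma), and Acadl, for long chains, fell from 3761 ± 358 to 2255 ± 65 (log2 change -0.73). Acads, for short chains, fell from 3672 ± 191 to 2646 ± 147 (log2 change -0.47). Acadm, the medium-chain enzyme, did not pass the test: its values were 6924, 7214, 5676 and 5849.8 in controls, against 6169, 5612, 5153 and 5824 in dKO (log2 -0.17 with an SE of 0.09; adjusted p = 0.185 by limma), the groups overlapped, and with quantile normalization its change was 0.08. Acad11, a further member of the family, fell to 50.3% of the control mean, from 5612 ± 879.5 to 2823 ± 139.9 (log2 change -0.98).

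The later reactions of the mitochondrial cycle were lower in all 5 genes, without overlap. Hadha and Hadhb encode the 2 subunits of the trifunctional protein, which carries out hydration, dehydrogenation and thiolysis of long chains. Hadha stood at 8145, 7749, 6887 and 6478 in controls, against 4315, 3823, 3935 and 3953 in dKO (log2 -0.86 with an SE of 0.09; adjusted p = 7.3e-06 by limma), and Hadhb fell from 2911 ± 371 to 1843 ± 68.4 (log2 change -0.65), so both subunits were lower. For shorter chains, the thiolase Acaa2, among the most abundant genes of the group, fell from 14681 ± 1309.5 to 8691 ± 370.4 (log2 -0.75 with an SE of 0.08; adjusted p = 1.9e-05 by limma). The dehydrogenase Hadh fell to 65.6% and the hydratase Echs1 to 75.7% of the control mean (log2 changes -0.61 and -0.40).

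Unsaturated chains need isomerases and reductases to enter the cycle, and all 4 such genes fell without overlap. Eci2, an enoyl-CoA isomerase found in peroxisomes and mitochondria, stood at 4762, 4503, 3069 and 3408 across controls 1 to 4, against 1874, 1474, 1435 and 1777 across dKO livers 1 to 4 (log2 -1.25 with an SE of 0.14; adjusted p = 2.05e-05 by limma). Controls 1 and 2 were above controls 3 and 4, and all dKO values were lower still. The mitochondrial isomerase Eci1 fell from 2418 ± 241 to 1187 ± 120.5 and the mitochondrial dienoyl-CoA reductase Decr1 from 3335 ± 491 to 1636 ± 95 (log2 changes -1.03 and -1.02). Their peroxisomal counterpart Decr2 fell from 4717 ± 419 to 3148 ± 171 (log2 change -0.58).

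**Figure D2:**
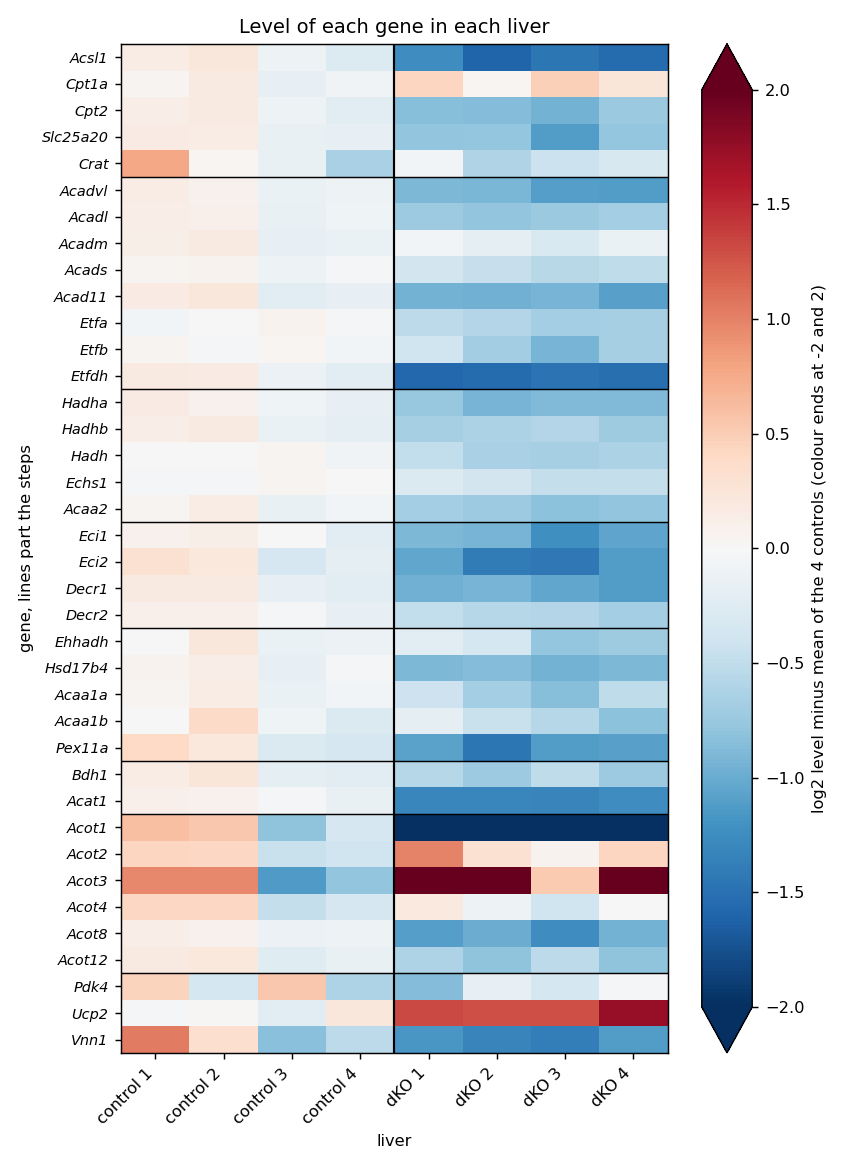
Level of each of the 38 genes (rows, parted by step) in each of the 8 livers (columns), as log2(normalised reads + 0.5) minus the mean of the 4 controls; blue is below and red above that mean, and colours end at -2 and 2. Most rows are blue in all 4 dKO columns, Ucp2 and Acot3 are red there, and controls 1 and 2 are slightly redder than controls 3 and 4.

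Many peroxisomal enzymes end in a short signal at the carboxyl terminus, while others, among them the thiolases, carry a signal near the amino terminus. The last 30 coding bases are given for enzymes found in peroxisomes, the thiolases and Decr2 included, beside the cytosolic Acot1 and the mitochondrial Acot2, with the codons of the last 3 residues and the stop codon in capitals. They come from the longest complete coding transcript of each gene in GENCODE release M21 on GRCm38.
Ehhadh, chr16:21762084-21762113, minus strand: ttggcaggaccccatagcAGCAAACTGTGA
Eci2, chr13:34977911-34977940, minus strand: agcttcgtctccagaaaaCCAAAGCTGTGA
Crat, chr2:30402578-30402607, minus strand: ctccagaaccaccccaggGCCAAGCTCTGA
Acot8, chr2:164792892-164792921, minus strand: aagcctcaggtgtcagagAGTAAGCTATAG
Acot3, chr12:84058997-84059026, plus strand: aaaaagaagacaatcccaGCAAAACTGTGA
Acot4, chr12:84043767-84043796, plus strand: acccacagcagagcctccTGTAGACTGTAG
Decr2, chr17:26081990-26082019, minus strand: ttcatggggaatgcctccTGCCTTGCATAG
Acaa1a, chr9:119350004-119350033, plus strand: gctgcggtctttgaatacCCTGGGAACTGA
Acaa1b, chr9:119148338-119148367, minus strand: gctgcggtctttgaatacCCTGGGAACTGA
Acot1, chr12:84017350-84017379, plus strand: gagtgtttgcatgtgtctCCTAAAATATAA
Acot2, chr12:83993051-83993080, plus strand: ttccacaaacagttgggtAGCAAGAGTTAG

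Before the stop codon, Ehhadh, Eci2, Crat, Acot8 and Acot3 have AAA or AAG and then a codon that starts with CT, and Acot4 has AGA and then CTG. In the transcripts shown, Decr2, Acaa1a, Acaa1b, Acot1 and Acot2 end in other codons. Only the longest coding transcript of each gene was read, for Decr2 one of 1056 coding bases. Other transcripts of a gene may end differently, so the end shown for Decr2 does not tell whether its protein lacks the signal. Of these 11 genes, Ehhadh, Eci2, Acot8, Decr2, Acaa1a, Acaa1b and Acot1 fell, Acot3 rose, and Crat, Acot4 and Acot2 did not pass the test.

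The 5 peroxisomal genes also fell, 4 of them without overlap. Pex11a, which takes part in peroxisome division, had the largest change, with 2423, 2122, 1504 and 1446 across controls 1 to 4, against 871, 673, 846 and 860.3 across dKO livers 1 to 4 (log2 -1.18 with an SE of 0.15; adjusted p = 7.41e-05 by limma). All dKO values were under the lowest control by a wide margin, and dKO 2 was the lowest liver. Hsd17b4, the peroxisomal bifunctional enzyme that also handles branched chains, fell from 8805 ± 778 to 4696 ± 95 (log2 change -0.90), and the other bifunctional enzyme, Ehhadh, which also acts on dicarboxylic acids, fell from 8697 ± 1037 to 6139 ± 1131 (log2 -0.51 with an SE of 0.13; adjusted p = 0.00626 by limma). Ehhadh's call was lost with quantile normalization (limma adjusted p = 0.0939).

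The peroxisomal thiolases close this cycle and are encoded by the near copies Acaa1a and Acaa1b, whose coding sequences of 1275 bases each were 96.5% identical. Of the 100-base windows of the longest coding transcript of Acaa1a, 21.6% stood unchanged in that of Acaa1b, so their reads may be shared or lost by the counting step, whose settings were not at hand. Acaa1a fell from 5773 ± 506 to 3786 ± 481 (log2 -0.61 with an SE of 0.10; adjusted p = 0.000359 by limma). Acaa1b, with the highest level per length of all 38 genes (13890.2 ± 2830.4 normalised reads per kilobase of exon in controls), stood at 26633, 35036, 25384 and 21956 in controls, against 23502, 19728, 18126 and 15159 in dKO (log2 -0.51 with an SE of 0.15; adjusted p = 0.0201 by limma). The groups overlapped, as dKO 1 exceeded control 4, and the call was lost with quantile normalization (adjusted p = 0.341), without control 2 (0.0609) and without dKO 4 (0.0678, all limma).

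The ketone body genes listed are Acat1 and Bdh1, and both fell without overlap. Acat1, the mitochondrial thiolase that joins 2 acetyl-CoA to acetoacetyl-CoA, stood at 6806, 6735, 6273 and 5750.3 across controls 1 to 4, against 2575, 2572, 2546 and 2705 across dKO livers 1 to 4. The dKO values spanned a 1.06-fold range at 40.7% of the control mean (log2 -1.29 with an SE of 0.07; adjusted p = 8.28e-08 by limma), the smallest adjusted p of the 38 genes. Bdh1, which interconverts acetoacetate and 3-hydroxybutyrate, fell from 4156 ± 682 to 2664 ± 201 (log2 -0.63 with an SE of 0.11; adjusted p = 0.000579 by limma).

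The acyl-CoA thioesterases split in direction. Acot1, the cytosolic enzyme, stood at 1173, 1132, 444 and 614 across controls 1 to 4, against 145, 75.8, 39.2 and 80.1 across dKO livers 1 to 4. The lowest control was above the highest dKO liver, and the dKO mean was 10.1% of the control mean (log2 -3.33 with an SE of 0.37; adjusted p = 1.93e-05 by limma), the largest change of the 38 genes. In the same livers the peroxisomal enzyme Acot3 held 217, 216, 50.5 and 64 in controls, against 931, 485, 160.1 and 540 in dKO (log2 2.00 with an SE of 0.55; adjusted p = 0.0114 by limma). Acot3 thus rose, though unevenly: dKO 3 lay below controls 1 and 2, the dKO livers spanned a 5.82-fold range, and the call was lost with robust variances (limma adjusted p = 0.0854).

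Acot1 to Acot4 are neighbours on chromosome 12, and their reads can be confused. On GRCm38 Acot2 spans chr12:83987861-83993873, Acot1 spans chr12:84009490-84018371, Acot4 spans chr12:84038379-84048601 and Acot3 spans chr12:84052144-84060402, all on the plus strand. The coding sequence of Acot1 was 95.2% identical to that of Acot2, 83.9% to Acot3 and 76.6% to Acot4, and 16.5%, 4.8% and 0.4% of the 100-base windows of its longest coding transcript stood unchanged in theirs. Acot2, the mitochondrial enzyme, stood at 152, 149.8, 82 and 84.6 in controls, against 223, 139, 118 and 151 in dKO (log2 0.45 with an SE of 0.25; adjusted p = 0.179 by limma), and Acot4, a peroxisomal enzyme for succinyl-CoA, at 650, 651, 350.3 and 387 in controls, against 561, 456, 369.6 and 494 in dKO (log2 -0.07 with an SE of 0.20; adjusted p = 0.81 by limma). Neither passed the test and both overlapped; for Acot4 the sign of the change turned without control 1, control 2 or dKO 3. Of the neighbours outside the 38 genes, Acot6 stood at 28.8, 36.9, 36.8 and 45.7 in controls, against 61.3, 80.4, 40.9 and 64.2 in dKO (limma adjusted p = 0.0393, lost in 8 of 19 other settings), and Acot5 had 0 reads in the controls and 6 in the dKO livers. Of the controls, 1 and 2 were above 3 and 4 for each of Acot1 to Acot4, and dKO 1 was the highest and dKO 3 the lowest dKO liver for the same 4 genes.

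Per length of exon, Acot1 was the highest of these 4 in controls, at 214 ± 93.6 normalised reads per kilobase. Acot4 (76.4 ± 24.5), Acot2 (53.3 ± 17.8) and Acot3 (39.8 ± 26.8) followed, with spreads over the livers that overlapped. In dKO livers Acot3 had the highest mean, 154 ± 92, but its spread reached Acot2 (71.8 ± 20.9) and Acot4 (70.5 ± 12), and Acot1 was lowest at 21.7 ± 11.2. These spreads do not pair the genes within a liver, and differences between genes of the same liver were not tested. Away from the cluster, Acot8, a peroxisomal thioesterase of broad range, fell from 378 ± 33.2 to 179 ± 16.2 (log2 -1.07 with an SE of 0.11; adjusted p = 8.37e-06 by limma), and Acot12, a cytosolic acetyl-CoA hydrolase, fell from 2697 ± 415 to 1666 ± 163 (log2 change -0.69), both without overlap.

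**Figure D3:**
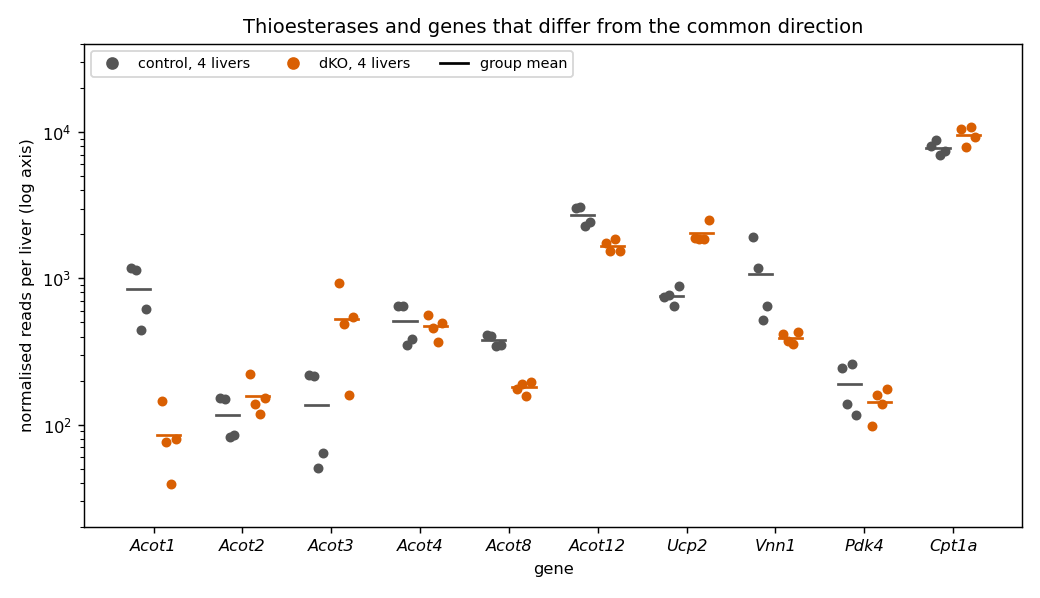
Normalised reads in each liver (points; grey controls, orange dKO, 4 livers each) with group means (lines) on a log axis, for the 6 thioesterases and the other genes with an uneven or opposite change. Acot1 falls to 39.2 to 145 in dKO livers, Acot3 and Ucp2 lie higher there, and the groups overlap for Acot2, Acot3, Acot4, Pdk4 and Cpt1a.

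The 3 genes around the pathway went different ways. Ucp2, an uncoupling protein of the inner mitochondrial membrane that macrophages express strongly, stood at 740.4, 764, 650 and 885 across controls 1 to 4, against 1894, 1856, 1855 and 2521 across dKO livers 1 to 4 (log2 1.41 with an SE of 0.12; adjusted p = 1.75e-06 by limma). All dKO values were above all controls, and dKO 4 was the highest liver. Markers of monocytes, macrophages and Kupffer cells rose in 10 of 13 cases; their part in the rise of Ucp2 was not tested. Vnn1, a pantetheinase that splits a breakdown product of coenzyme A, stood at 1916, 1171, 519 and 646 in controls, against 415, 373, 356 and 430.2 in dKO (log2 -1.25 with an SE of 0.31; adjusted p = 0.00652 by limma). The controls varied, the dKO livers were alike and all lower, and the call was lost with robust variances (limma adjusted p = 0.0592). Pdk4, a kinase that closes pyruvate dehydrogenase in fasting, stood at 242, 139, 259 and 116 in controls, against 97.5, 159.9, 139 and 174 in dKO (limma adjusted p = 0.32), and the groups overlapped.

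The livers also differed within their groups. In controls 1 and 2 the median gene of the 38 lay 0.14 and 0.16 above its control mean on the log2 scale, and in controls 3 and 4 it lay at -0.14 and -0.17. Control 1 or 2 held the highest control value for 16 and 17 of the 38 genes. In dKO livers the medians were 0.11, -0.01, -0.07 and -0.01, with dKO 1 the highest liver for 22 genes and dKO 3 the lowest for 22. Controls 1 and 2 were likewise above controls 3 and 4 for Cyp4a10, a fatty acid hydroxylase and a classical PPAR-alpha gene, at 10696, 11724, 5985 and 6105 in controls, against 382, 127, 90.3 and 348 in dKO. This order did not hold for Cyp4a32, named below, where control 2 (733) lay under control 4 (764). When any 1 liver was left out, the median change of the 38 genes stayed between -0.73 and -0.64.

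Other genes of the pathway, in lists drawn up by function, were read from the same fit. Of 57 other fatty acid oxidation enzymes 26 fell and 14 rose (median log2 change -0.28), against backgrounds of 17.0% lower and 21.2% higher over all genes and 37.7% and 21.2% over abundant genes. The falls with the smallest adjusted p were Pccb and Pcca, the 2 subunits of propionyl-CoA carboxylase, from 3504 ± 70.1 to 1757 ± 57.9 and from 1430.1 ± 84.9 to 748 ± 37.2, Acadsb, a dehydrogenase of branched short chains, from 2631 ± 179 to 1258 ± 85.5, and Hacl1, a lyase of peroxisomal alpha oxidation, from 7407 ± 586 to 3259 ± 298. Of 21 genes of peroxisome biogenesis and content 16 fell and 2 rose (median -0.43). Among them were catalase (Cat), from 54069 ± 3178 to 29126 ± 1133, the peroxisomal protease Lonp2, from 8129.5 ± 751 to 4093 ± 394, the membrane protein Pxmp4, from 2364 ± 382 to 911 ± 70.1, and the acyltransferase Acnat1, from 1021 ± 169.8 to 309 ± 27.6. The fall of Pex11a described above was thus accompanied by falls in most other peroxisomal genes measured.

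In the list of PPAR-alpha, its partners and responsive genes outside the 38, 16 of 24 fell and 4 rose (median -0.87). The shares over all genes tested were 17.0% lower and 21.2% higher, and those over abundant genes 37.7% and 21.2%. Cyp4a10 fell to 2.75% of its control mean (log2 -5.38 with an SE of 0.41; adjusted p = 9.27e-07 by limma), Cyp4a32 from 794 ± 182 to 48.9 ± 31.9, the fatty acid binding protein Fabp1 from 33687 ± 2252 to 11687 ± 2811 and the retinol saturase Retsat from 8103 ± 1806 to 917 ± 84.2. Genes of the citrate cycle and of mitochondrial content were mixed: of 23, 10 fell and 6 rose (median -0.10), near the shares over abundant genes. Their sum was 61308 to 64247.5 in controls and 58671 to 63828 in dKO livers. Among those that rose were Ppif, a pore regulator of the mitochondrial matrix, from 679.5 ± 41.8 to 1370.1 ± 103, Mdh2, malate dehydrogenase, from 2889 ± 52.5 to 4713 ± 359.8, and Vdac2, an outer membrane channel, from 1352 ± 63.6 to 2007 ± 119. Ppif, Mdh2 and Vdac2 are named for their small adjusted p, though more genes of that list fell than rose. The difference between these lists and the 38 genes was not tested.

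**Figure D4:**
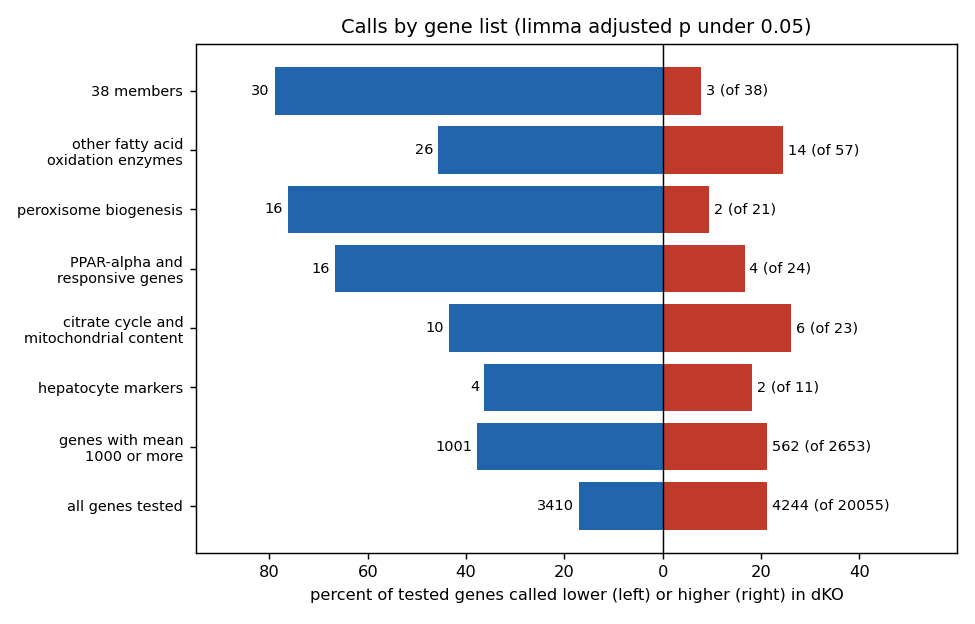
Share of tested genes called lower (blue, to the left) or higher (red, to the right) in dKO livers, for the 38 genes, the other lists and 2 backgrounds (all genes tested and those with a mean of 1000 or more normalised reads); numbers give counts. The 38 genes and the peroxisome list have the longest blue bars, 30 of 38 and 16 of 21, against 1001 of 2653 among abundant genes.

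Promoters were searched because the genes fell together and PPAR-alpha binds, with its partner RXR, to direct repeats of AGGTCA with 1 base between the copies. In RefSeq promoters on GRCm38.p6, from 250 bases before to 50 after the start, 32 of the 38 genes had an entry; Acaa2, Acat1, Crat, Decr1, Hsd17b4 and Vnn1 did not. At most 2 mismatches to the repeat, on either strand, were found in 5 of the 32 (15.6%) and in 4.4% of all 27025 genes with a promoter; at most 1 mismatch in 1 of 32 and in 0.644% of all genes. The matches before the start are given with the repeat in capitals, on the strand of the gene, so that TGACCT marks a copy on the other strand.
Acot12, chr13:91741381-91741453, plus strand: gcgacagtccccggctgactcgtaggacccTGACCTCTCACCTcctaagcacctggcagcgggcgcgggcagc
Echs1, chr7:140116462-140116534, minus strand: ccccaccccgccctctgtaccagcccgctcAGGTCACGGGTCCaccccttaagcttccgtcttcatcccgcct
Etfa, chr9:55512278-55512350, minus strand: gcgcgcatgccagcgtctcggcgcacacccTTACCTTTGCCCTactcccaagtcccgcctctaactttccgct
Acot4, chr12:84038336-84038378, plus strand: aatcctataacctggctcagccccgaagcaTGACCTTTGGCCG

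The match of Acot12 had 1 mismatch and lay 97 bases before the start; those of Echs1 and Etfa had 2 mismatches and lay 70 and 64 bases before it. The match of Acot4 had 2 mismatches and touched the start, and the one of Slc25a20 lay just after it. Of these 5 genes Acot12, Echs1, Etfa and Slc25a20 fell, and Acot4 did not pass the test. Acot1 and Acsl1, with larger falls, had no such match in their windows. A match is a description of letters, and elements farther from the start were not searched.

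Because the deleted proteins bind AU-rich stretches of 3' untranslated regions, the heptamer TATTTAT was searched there on the transcript strand, in protein-coding transcripts of GENCODE release M21. It stood in 6 of the 38 genes (15.8%) and in 30.1% of the 15424 tested genes with such a region. The 6 matches follow, with the heptamer in capitals and its own coordinates on GRCm38.
Cpt1a, chr19:3385115-3385121, plus strand: tttaaatcatgTATTTATtttccagtgcc
Cpt2, chr4:107904016-107904022, minus strand: taactcagctgTATTTATtgtttaaatag
Vnn1, chr10:23905005-23905011, plus strand: gggctattaagTATTTATctcaacatttc
Acot12, chr13:91785715-91785721, plus strand: ttataaattacTATTTATatatcataaga
Acot4, chr12:84045585-84045591, plus strand: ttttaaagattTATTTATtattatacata
Pdk4, chr6:5483498-5483504, minus strand: gccttccctatTATTTATgaacccatggg

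Of the 6 genes, Cpt1a rose, Cpt2, Vnn1 and Acot12 fell, and Acot4 and Pdk4 did not pass the test. Ucp2 and Acot3, the genes of the 38 with the largest rises, had no TATTTAT in their annotated regions. Of the 30 genes that fell, 27 had none either. Since 30.1% of the tested genes held the heptamer, most genes lack it. Only this exact heptamer was searched, without regard to the length of the region, and other AU-rich stretches were not.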

How the data were processed

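RNA-seq values were deposited as 1 column per mouse. Although the name of the deposited table reads FPKM, the authors' values have the form of a size-factor scaled signal: in each library, 100% of them were whole multiples of 1 step (within 0.001), and dividing by that step returned the reads. The submitters' processing notes name DESeq2, fastp, featureCounts 1.5.0-p3, HISAT2 2.0.5 and mm10, per the labels without role or order. Annotation, strandedness and read filters were not given in the sources used here, and overlapping genes and near copies can share reads.

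Of 22052 identifiers 21796 matched a symbol. Genes with a mean of 0.5 or more (20055) were fitted together on log2(value + 0.5) with limma 3.58.1 (trend, group alone, R 4.3.3), 2-sided, with Benjamini-Hochberg adjustment over all of them and a threshold of 0.05. The 38 members, the lists, the tests and the alternatives were chosen with earlier results of these data known. The rule for named genes took all members, the targeted genes, up to 4 called genes with the smallest adjusted p of each other list (cell marker lists are given as counts, and 1 gene of the citrate cycle list is not reported here), and Acot5 and Acot6. Lists of the other cell types not described in the text were T, NK and B cells (1 of 10 higher, 3 lower), endothelium (3 of 7 higher, 1 lower), adipose tissue (1 of 1 tested higher) and muscle and pancreas (1 of 4 tested lower). Alternatives were edgeR 4.0.16 and DESeq2 1.42.0 on the recovered reads, TMM and quantile scaling, other pseudocounts and filters, robust variances, a replicate block and leaving out each liver. The fit was tested on simulated data with 1 common setting of variation for every gene and few changed genes. That setting does not cover genes as uneven between livers as Acot3, Vnn1 or Crat. The background of abundant genes was added after the data were seen. Exon lengths are unions over GENCODE release M21. A gene at 0 reads is below a floor of 3 reads per library, or 2.55 to 3.43 normalised reads, which covers counting error only.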

Additional observations from a re-analysis of the deposited data

Results flagged for a closer look

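A liver stood apart from the other 3 of its group, by a gap above Dixon's 95% critical share of the range, in 5 of 80 gene and group combinations; chance gives about 1 in 20. Slc25a20 was lowest in dKO 3, at 1022.8, with the others from 1281 to 1302. Pex11a was lowest in dKO 2, at 673, with the others from 846 to 871. Ucp2 was highest in dKO 4, at 2521, with the others from 1855 to 1894. Of the targeted genes, Zfp36l1 was highest in dKO 4 of the dKO livers (267, with the others from 209 to 214), and Zfp36l2 was lowest in control 3 of the controls (997, with the others from 1722 to 1819.6).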

How the results depend on the processing

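Over 19 other settings, 28 to 31 of the 38 genes were lower and 2 or 3 higher, with 30 and 3 in the reported fit. Calls and directions held in every setting for 30 genes. Of 722 values for single genes, 16 lost the call, 1 gained it and 4 changed sign; the cause was not tested. The sign changes were those of Acadm with quantile normalization (0.08) and of Acot4 without control 1 (0.06), control 2 (0.06) or dKO 3 (0.04), none of them called; leaving out 1 liver at a time moved Acot4 between -0.23 and 0.06. Quantile normalization moved the median of all genes from 0.03 to -0.08 and that of the 38 genes from -0.68 to -0.53, so relative to all genes the shift stayed in the same direction. With edgeR and with DESeq2 30 genes were lower and 3 higher. With a replicate block, taking the mouse numbers as pairs, 30 were lower and 2 higher; the numbers only count mice within a group, and same-numbered livers did not deviate together (correlations -0.069 to 0.077 across genes). The number of livers limits the precision for genes that vary between mice, such as Acot3, Vnn1 and Crat. Summed over the livers of a group, the 38 genes had 358 to 103419 reads. Counting error weighs more on single livers of the lowest genes, such as Acot1 in dKO 3 at 39.2 normalised reads.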

Other observations

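Some enzymes of the wider pathway rose in the livers where the 38 genes fell. Of the 57 other fatty acid oxidation enzymes 14 rose and 26 fell. Over all genes tested 21.2% were higher and 17.0% lower, and over abundant genes 21.2% and 37.7%. The share that rose was thus near that of genes in general. Those described here were named after their values were seen. Oxct1, which starts the use of ketone bodies and is usually scarce in hepatocytes, stood at 65.7, 60.5, 57.8 and 120.1 across controls 1 to 4, against 208, 189.5, 222 and 221 across dKO livers 1 to 4 (log2 1.53 with an SE of 0.21; adjusted p = 0.000103 by limma). Control 4 was nearest to the dKO livers, and the groups did not overlap. Acsl4, an acyl-CoA synthetase that prefers arachidonic acid, rose from 819 ± 123 to 2003 ± 79.2 (log2 1.30 with an SE of 0.10; adjusted p = 1.31e-06 by limma), while Acsl1 fell.

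Among thioesterases outside the 38 genes, the mitochondrial Acot9 rose from 54.9 ± 23.5 to 171 ± 37.2 (log2 change 1.69). Acot13 rose from 657 ± 84.8 to 1109 ± 102 (log2 change 0.76) and the cytosolic Acot7 from 324 ± 24.6 to 427 ± 26.9 (log2 change 0.40). Each had a limma adjusted p under 0.05 and no overlap. Acot11 (log2 change -0.38), Them4 (-0.08) and Acot10, with few reads, did not pass the test. Fgf21, a hormone that PPAR-alpha induces in fasting, rose from 15.6 ± 9.47 to 50.2 ± 30 (log2 1.68 with an SE of 0.48; adjusted p = 0.0139 by limma) from few reads, with overlap between the groups, in livers where the transcript of Ppara itself fell from 2658 ± 499.6 to 1765 ± 324 (log2 -0.59 with an SE of 0.15; adjusted p = 0.00697 by limma).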
